A study of Mus musculus with 4 samples.

Results

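A set of 10 genes of the smooth muscle contractile apparatus was followed in single cells of the mouse mammary epithelium. The genes were chosen by name, as Acta2, Actg2, Myh11, Cnn1, Tagln, Myl9, Mylk, Tpm1, Tpm2 and Oxtr, and all 10 were found among the 27998 genes of the count tables. They were described by lineage, by developmental stage and by their variation among basal cells. Basal cells of the mammary gland are myoepithelial. They surround the luminal layer, carry a smooth muscle type of actin and myosin, and squeeze milk out of the alveoli when oxytocin binds its receptor. Contraction starts when calcium and calmodulin switch on myosin light chain kinase, which phosphorylates the regulatory light chain of smooth muscle myosin, and tropomyosin and calponin lie along the actin filament. Luminal progenitor (LP) and mature luminal (ML) cells form the inner layer and are not contractile.

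Epithelial cells (Lin- CD24+) from female FVB/NJ mice were captured on a 10x Genomics Chromium machine, which tags the 3′ end of each polyadenylated transcript with a molecular barcode. Puberty was sampled at 5 weeks of age. Adult glands were taken at 10 weeks in estrus or in diestrus, the phases of the ovarian cycle, and the glands of 2 mice were pooled for each phase. No treatment or transgene separated the groups, so stage was the only label, and with 1 library per stage a difference between animals or preparations cannot be told apart from a difference between stages.

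The libraries held 5428 cells at puberty, 2729 in estrus and 2439 in diestrus, with median depths of 4103, 3236 and 3974 counts per cell. A second puberty table shared 5387 barcodes with the first, which is 99.8% of its own barcodes, and was treated as the same library. Other pairs of libraries shared between 13 and 24 barcodes. Cells were called basal, LP or ML from lineage signatures that contained neither the 10 genes nor any gene of the lists below. This gave 1126, 1294 and 1047 basal cells at puberty, estrus and diestrus. The 8 basal markers (Krt5, Krt14, Krt17, Trp63 and others) summed to between 12284 and 20389 CPM (counts relative to all counts of the same cells, scaled to the usual common total) in basal cells and to between 40.1 and 120.0 CPM in LP and ML cells. Smooth muscle cells of vessels and pericytes carry several of the same contractile genes. Of 6 pericyte markers, 3 to 5 had any count in basal cells, their summed level was 2.21, 10.1 and 3.81 CPM at puberty, estrus and diestrus, and Abcc9 was at 0 in each library, which allows up to 0.737, 0.688 and 0.636 CPM (3 counts).

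Contractile genes were concentrated in basal cells in each of the libraries. Together the 10 genes took 2.22% of all counts in pubertal basal cells (95% interval 2.21 to 2.24). The share was 3.29% in estrus (3.27 to 3.31), whereas in diestrus it was 2.30% (2.28 to 2.31). In LP cells they took 0.0271%, 0.0228% and 0.0222%, and in ML cells 0.0247% and 0.0231% at puberty and estrus and 689 of 3445033 counts in diestrus. These exact binomial intervals, like all intervals here, cover counting error only. All 10 genes were higher in basal cells than in the mean of LP and ML cells, by between 2.84 and 8.35 on the log2 scale, in an edgeR quasi-likelihood fit of summed counts with library as a block. In the same fit 28.0% of 11128 genes tested were higher in basal cells and 53.4% were called in either direction. Beside a median log2 difference of 7.77 over the 10 genes, the median over all genes tested was 0.02.

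**Figure D1:**
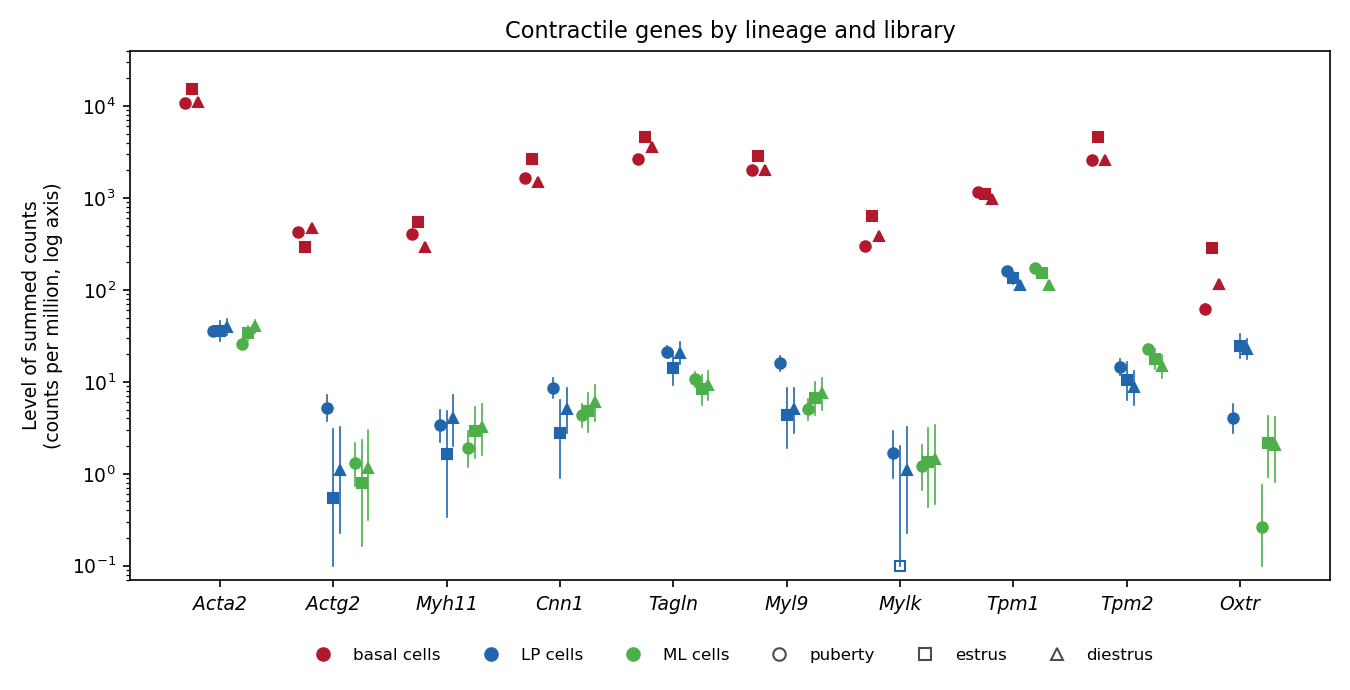
Level of each gene in counts summed over the basal (red), LP (blue) and ML (green) cells of each library, in CPM on a log axis, with exact Poisson 95% intervals as vertical lines; symbols mark the stage and an open symbol at the bottom marks a count of 0. Acta2 was the highest in basal cells, between 10910 and 15314 CPM, and Tpm1 was the gene with the smallest gap between basal and luminal cells.

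Among the actins of the thin filament, Acta2, smooth muscle alpha-actin (ENSMUSG00000035783, chr19:34241090-34255590, minus strand), stood at 10910 CPM at puberty, 15314 in estrus and 11079 in diestrus in basal cells. In LP cells it stood between 35.7 and 39.8 CPM, and in ML cells between 25.8 and 40.3 CPM. The basal libraries all lay far above the luminal ones, with a log2 difference of 8.35 ± 0.15 (SE, n = 3 libraries; edgeR adjusted p = 1.72e-10). Acta2 alone made up 46.6% to 49.1% of the counts of the 10 genes in basal cells.

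Actg2, the enteric smooth muscle gamma-actin (chr6:83512905-83536265, minus strand), was far lower in basal cells, at 427 CPM at puberty, 291 in estrus and 470 in diestrus. Estrus was its lowest stage, whereas Acta2, Cnn1, Tagln, Myl9, Mylk, Tpm2, Myh11 and Oxtr had their highest basal level there. Tagln, transgelin or SM22 (chr9:45929619-45936058, minus strand, overlapped by Pcsk7 on the other strand), an actin-binding protein, had basal levels of 2670, 4556 and 3553 CPM at puberty, estrus and diestrus. Cnn1, calponin (chr9:22099216-22109630, plus strand), had 1651, 2689 and 1497 CPM. Both were more than 200-fold higher than in luminal cells in the fit.

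The tropomyosins differed from each other. Tpm2 (chr4:43514711-43523765, minus strand) had basal levels of 2617, 4593 and 2570 CPM and luminal levels of 8.75 to 22.6 CPM, a log2 difference of 7.64 ± 0.20. Tpm1 (chr9:67022590-67049406, minus strand) had basal levels of 1161, 1102 and 967 CPM, so it varied less between stages. In LP cells Tpm1 stood at 160.6, 134 and 113 CPM and in ML cells at 173, 152 and 114 CPM. Its log2 difference was 2.84 ± 0.10 (edgeR adjusted p = 2.16e-09), the smallest of the 10.

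Genes of the thick filament and its control were all below Acta2 in basal cells. Myh11, the smooth muscle myosin heavy chain (chr16:14194535-14291372, minus strand), had basal levels of 402, 547 and 295 CPM at puberty, estrus and diestrus. Myl9, the regulatory light chain (chr2:156775420-156781658, plus strand), had 2013, 2870 and 2032 CPM. Mylk, the kinase that phosphorylates it (chr16:34745210-35002420, plus strand), had 302, 641 and 389 CPM. In LP and ML cells Mylk had between 0 and 1.70 CPM. The 471 LP cells of the estrus library held 0 counts of Mylk, which allows up to 1.65 CPM (3 counts).

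Oxtr, the oxytocin receptor (chr6:112473683-112489943, minus strand), had the lowest basal level at each stage, at 62.2 CPM at puberty, 283 in estrus and 115 in diestrus. Its order of stages was therefore estrus, diestrus, puberty, with no overlap of the counting intervals. Its log2 difference to luminal cells was 4.93 ± 0.22 (edgeR adjusted p = 1.94e-08).

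Contractile genes are textbook targets of serum response factor (SRF), which binds a short motif, the CArG box. RefSeq promoters (GRCm38.p6), which run from 250 bases before to 50 bases after a start site, were at hand for 7 of the 10 genes, namely Acta2, Cnn1, Myl9, Mylk, Tpm1, Tpm2 and Oxtr. A strict CArG box stood in 1.63% of all 32851 promoters, and one with a single G or C in its A/T core stood in 8.499%. The motif reads the same on both strands. Myl9 had 1 strict and 1 near match and Acta2 had 2 near matches, and the other 5 had none in this window. The RefSeq start sites need not be the gene ends given above. The Mylk window, chr16:34784700-34784999, lay inside the Mylk gene, so its result concerns that start only. Both Acta2 matches lay inside the Acta2 gene as positioned above. The matches are shown with 10 bases on either side, 5′ to 3′ on the strand of the gene, with the motif in capitals.
Acta2 (near match), chr19:34255438-34255467: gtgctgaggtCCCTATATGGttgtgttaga
Acta2 (near match), chr19:34255388-34255417: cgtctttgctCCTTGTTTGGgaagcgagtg
Myl9 (strict match), chr2:156775293-156775322: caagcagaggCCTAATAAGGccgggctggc
Myl9 (near match), chr2:156775355-156775384: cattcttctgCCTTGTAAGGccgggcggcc
These letters describe the window only, and whether a factor bound there was not measured.

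Related genes of the non-muscle cytoskeleton differed between the lineages in both directions. Of 12 paralogs, 7 were higher in basal cells, 2 were lower and 3 did not pass the threshold, against 28.0% of all genes higher and 25.4% lower. Beta-actin (Actb) was 1.79-fold higher in basal cells and gamma-actin (Actg1) had a log2 difference of 0.09 ± 0.10, below the threshold. Transgelin 2 (Tagln2) had a log2 difference of 0.00 ± 0.13 and Tpm3 one of -0.12 ± 0.10. Cnn3 passed as higher in basal cells, as did Tpm4 at 2.09-fold, Cnn2 at 10.8-fold and the non-muscle myosin heavy chain Myh10 at 17.9-fold. The other non-muscle heavy chain Myh9 was 1.68-fold higher in basal cells and Myl12a 1.49-fold. Myh14, at 7.40-fold, and Myl12b were higher in luminal cells.

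Other structural genes of the contractile apparatus were higher in basal cells throughout. All 17 of 19 listed genes that could be tested passed, with a median log2 difference of 3.14, against 28.0% of all genes. Synpo2, an actin-binding protein of the Z-disc, was 80.4-fold higher, Ppp1r14a, an inhibitor of myosin phosphatase, 43.3-fold, and Cald1, caldesmon, 39.8-fold. Synpo2 was a low gene, at 3.12, 10.9 and 3.87 CPM in basal cells at puberty, estrus and diestrus (scaled as in the stage comparison below). Its log2 difference had an SE of 0.62. Of 10 transcription regulators, 9 were tested, with 6 higher in basal cells and 1 lower, against the same shares of all genes. Mef2c was 147-fold higher (log2 7.20 ± 0.40), Tead1 5.54-fold and Srf 2.13-fold. The SRF cofactor Mkl1 was 1.66-fold higher in basal cells, Mkl2 was 2.20-fold lower, and Myocd had too few counts to be tested.

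Of 23 genes of calcium and receptor signalling, 20 were tested, 11 were higher in basal cells and 3 were lower, against 28.0% and 25.4% of all genes. Kcnmb1, a subunit of the calcium-activated potassium channel, was 321-fold higher, its pore subunit Kcnma1 82.0-fold, and Prkg1, the cGMP-dependent kinase, 45.5-fold. Kcnma1 was low too, at 3.12, 6.40 and 3.87 CPM in basal cells on the same scale, and its log2 difference had an SE of 0.79. Prkg1 stood at 11.5, 17.3 and 9.24 CPM there. It was higher in LP than in ML cells by 6.62 ± 0.85 on the log2 scale. Its fold over the mean of both therefore does not describe the gap to LP cells. Itpr3, an IP3 receptor, was 2.48-fold and Plcb3, a phospholipase C, 1.57-fold lower in basal cells. Adra1a passed as lower too, but it was at 0 CPM in the basal cells of each library, so no fold is given. The vasopressin receptor Avpr1a, a relative of Oxtr, was below the filter on low counts.

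Counts in luminal cells were set against the level in basal cells of the same library, since free RNA in the droplets can carry basal transcripts into other cells. Empty droplets were not examined, and the part of free RNA or of doublets in these counts was not tested. For the 8 genes other than Tpm1 and Oxtr, the luminal level was between 0 and 1.36% of the basal level, with medians by lineage and library of 0.208% to 0.680%. Krt14, a keratin of basal cells, had between 0.230% and 2.07% over the same 6 comparisons. Tpm1 was at 11.7% to 14.9% of its basal level in LP and ML cells of each library. This was above the range of the 8 genes in all 6 comparisons. Tpm1 and Oxtr were set apart by name with earlier results of these data known, so the gap is a description and not a test. A count of Tpm1 was seen in 16.1% to 19.0% of LP and ML cells after each cell had been thinned to 1500 counts.

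Oxtr divided the luminal lineages. In LP cells it was at 6.54% of its basal level at puberty (interval 4.35 to 9.51). This was 8.75% in estrus (6.35 to 11.8), and diestrus had 20.01% (15.2 to 26.0). In ML cells it was at 0.420%, 0.757% and 1.77%. The LP levels were 4.06, 24.7 and 23.0 CPM at puberty, estrus and diestrus and the ML levels 0.261, 2.14 and 2.03 CPM, so LP lay above ML in every library. The log2 difference between LP and ML cells was 3.81 ± 0.39 (edgeR adjusted p = 2.04e-05). The counts were spread over many cells, with 31 counts in 25 LP cells at puberty, 45 in 40 in estrus and 63 in 56 in diestrus, and no LP cell held more than 3. After thinning, 5.45% of LP cells had an Oxtr count in estrus (median depth 3236) against 0.130% of ML cells (median depth 4193).

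In all, 3 of the 10 genes differed between LP and ML cells, and all 3 were higher in LP cells. In that contrast 40.8% of all genes tested were called, and 21.7% were called higher in LP cells. Tagln had 21.2, 14.3 and 20.8 CPM in LP cells and 10.7, 8.29 and 9.29 CPM in ML cells, a log2 difference of 1.21 ± 0.26 (edgeR adjusted p = 0.00370). Both were below 1% of the basal level.

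Actg2 was the third gene, with a log2 difference of 1.68 ± 0.53 (edgeR adjusted p = 0.0258), but its call rested on the puberty library and was lost in DESeq2. There it had 5.24 CPM in LP cells, against 0.550 and 1.09 CPM in the adult LP libraries. Of the 40 Actg2 counts in pubertal LP cells, 32 lay in 1 cell, in which the 10 genes took 301 of 10339 counts. Without that cell the level was 1.05 CPM, and without the puberty library the log2 difference was -0.17. The same cell held 80 of 122 Myl9 counts and 31 of 66 Cnn1 counts of pubertal LP cells. Among the other structural genes 7 were higher in LP cells and 2 in ML cells, and none of the 12 paralogs was higher in LP cells while 6 were higher in ML cells, against 21.7% and 19.1% of all genes.

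The stages were compared in basal cells to ask how the contractile genes stood at puberty and over the ovarian cycle. Ratios were taken between counts scaled by TMM factors, and a gene was counted as changed past 2-fold; with 1 library per stage no test could be made. From estrus to diestrus only Oxtr passed 2-fold, and 11.8% of 2981 genes did so in either direction, with 3.46% lower and 8.35% higher. Oxtr had 0.443 of its estrus level in diestrus (interval 0.3997 to 0.490). With the mean over cells its log2 ratio was -0.95 and no gene of the 10 passed. At puberty it had 0.2504 of the estrus level (0.218 to 0.287), and again no other gene of the 10 passed, against 13.0% of 3006 genes in either direction, 4.56% lower and 8.45% higher. Mylk passed as well without the TMM factor (log2 ratio -1.09), with stricter cells (-1.19) and with the second puberty table (-1.02). Between puberty and diestrus none of the 10 passed 2-fold, against 5.84% of 3013 genes (3.68% higher and 2.16% lower). The puberty to diestrus ratio of Oxtr was 0.565 (0.485 to 0.657).

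**Figure D2:**
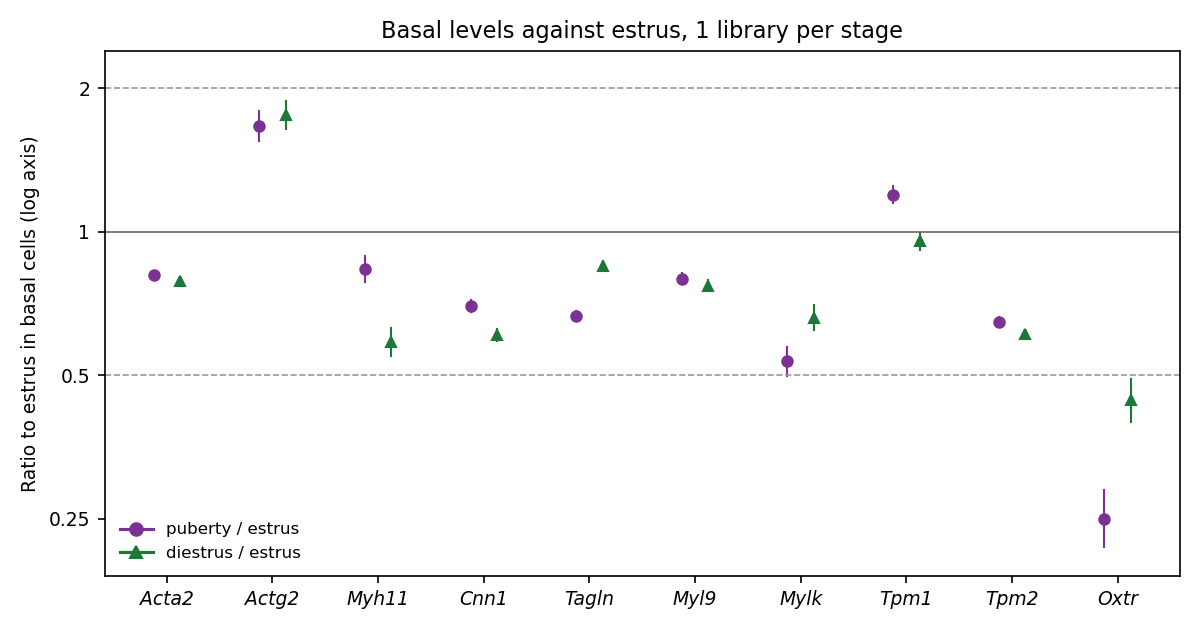
Ratio of the level in basal cells at puberty (circles) and in diestrus (triangles) to the level in estrus for each gene, on a log axis, with exact 95% counting intervals; the solid line marks equality and the dashed lines a 2-fold difference. Oxtr lies below the lower dashed line at both stages, and Actg2 is the gene above 1 at both.

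Most contractile genes were lower outside estrus by less than 2-fold. The median log2 ratio of diestrus to estrus was -0.48 over the 10 genes and 0.10 over all genes tested, and that of puberty to estrus was -0.42 against 0.16. In diestrus 9 of the 10 genes had a ratio below 1. Tpm2 had 0.610 (interval 0.596 to 0.624), Cnn1 0.607 (0.589 to 0.625), Myh11 0.588 (0.550 to 0.628) and Mylk 0.661 (0.623 to 0.702). Acta2, with 0.788 (0.779 to 0.798), and Tagln, with 0.85002 (0.833 to 0.868), were closer to 1. Tpm1 had 0.956 (0.917 to 0.995). At puberty the lowest ratios to estrus after Oxtr were those of Mylk, 0.535 (0.4997 to 0.572), Tpm2, 0.648 (0.633 to 0.664), and Tagln, 0.667 (0.652 to 0.683).

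Actg2 went the other way. It had 1.76 times its estrus level in diestrus (interval 1.64 to 1.89) and 1.67 times at puberty (1.55 to 1.80). The puberty to diestrus ratio of Actg2 was 0.950 (0.891 to 1.01), which spans 1. Without TMM factors the median over all genes moved by -0.12 for diestrus to estrus and by -0.18 for puberty to estrus. Over 7 alternatives 9 genes kept the direction of their diestrus to estrus ratio, and Tpm1 did not. Over 8 alternatives 9 genes kept that of puberty to estrus, and Myh11 did not. For puberty to diestrus only 4 of the 10 genes kept their direction over 8 alternatives.

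The share of cycling basal cells moved with stage too, at 12.3% at puberty, 4.95% in estrus and 19.8% in diestrus. Cycling was called without thinning, and the median depth of basal cells had the same order, at 2901.5, 2545.5 and 3397 counts. Stage and depth were not separated in this share. In non-cycling basal cells alone the 10 genes took 2.61% of counts at puberty, 3.62% in estrus and 2.68% in diestrus, so estrus remained the highest. The basal markers were also highest in estrus, at 20389 CPM against 12864 at puberty and 12284 in diestrus. Their part in the stage differences was not tested.

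Of the other structural genes, 14 reached 50 CPM in either basal library for diestrus against estrus. None of them passed 2-fold, against 11.8% of all genes. For puberty against estrus 2 of 14 passed, against 13.0% of all genes. These were Lmod1, leiomodin, and Pdlim3, both below their estrus level, at 70.3 against 201 CPM and at 200.1 against 436 CPM, scaled by TMM. Among the paralogs only Myl12b passed, of 10 at 50 CPM for puberty and 9 for diestrus against estrus, beside the same shares of all genes. It was lower than in estrus at both other stages, at 130 CPM at puberty and 129 in diestrus against 358 CPM. None of the 10 regulators reached 50 CPM.

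Cells in division were then compared with the other basal cells, since contractile proteins mark the differentiated state. A count before thinning in at least 3 of 10 genes of the cell cycle defined a cycling cell. This gave 138, 64 and 207 cycling basal cells at puberty, estrus and diestrus. The 10 genes took 0.949%, 1.22% and 1.61% of counts in cycling cells, against 2.61%, 3.62% and 2.68% in non-cycling ones. In the edgeR fit with library as a block, 9 of the 10 genes were lower in cycling cells, against 11.6% of 9305 genes tested. The median log2 difference over the 10 genes was -1.58, and -0.05 over all genes.

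Mylk had the lowest fitted value. It stood at 68.9, 129 and 194 CPM in cycling cells at puberty, estrus and diestrus and at 373, 723 and 499 CPM in non-cycling cells. Each cycling library was below each non-cycling one, and the log2 difference was -2.15 ± 0.22 (edgeR adjusted p = 5.38e-06). Acta2 stood at 4924, 6611 and 7699 CPM in cycling cells and at 12751, 16692 and 12986 CPM in non-cycling cells, with a log2 difference of -1.27 ± 0.14 (edgeR adjusted p = 1.57e-05). Oxtr, at 16.7, 60.4 and 64.6 CPM against 76.2, 318 and 143 CPM, had a log2 difference of -1.91 ± 0.24 (edgeR adjusted p = 4.30e-05). Tpm1 had the smallest called difference, -0.61 ± 0.14 (edgeR adjusted p = 0.00461). Its call was lost without the puberty library and without the library block, and that of Oxtr was lost without the block.

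Actg2 was the exception. It stood at 302, 227 and 577 CPM in cycling cells and at 466, 301 and 409 CPM in non-cycling cells, so it was lower at puberty and in estrus and higher in diestrus. Its log2 difference was -0.27 ± 0.20 (edgeR adjusted p = 0.355). Without the diestrus library it was -0.67 and passed the threshold, and without the puberty library it was 0.01.

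These are shares of a cell's RNA, and cycling cells held more counts. Cells were called cycling from counts before thinning, so a deeper cell met the rule more easily. How much of the depth gap followed from this rule was not tested, which also limits the counts per cell. The median depth of cycling cells was 6704, 9729 and 8255 counts against 2659, 2482 and 2972 (2971.5) in non-cycling cells. Counts of the 10 genes per cell were 65.8 in cycling and 82.3 in non-cycling cells at puberty, 114 and 111 in estrus, and 132 and 96.4 in diestrus. Per cell, Acta2 was thus at 0.851, 1.21 and 1.36 times the non-cycling count, Mylk at 0.407, 0.544 and 0.892 times and Tpm1 at 1.42, 2.19 and 1.75 times. The lower share in cycling cells therefore went with a lower count per cell in all 3 libraries for Mylk, and not for Tpm1 or Actg2.

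**Figure D3:**
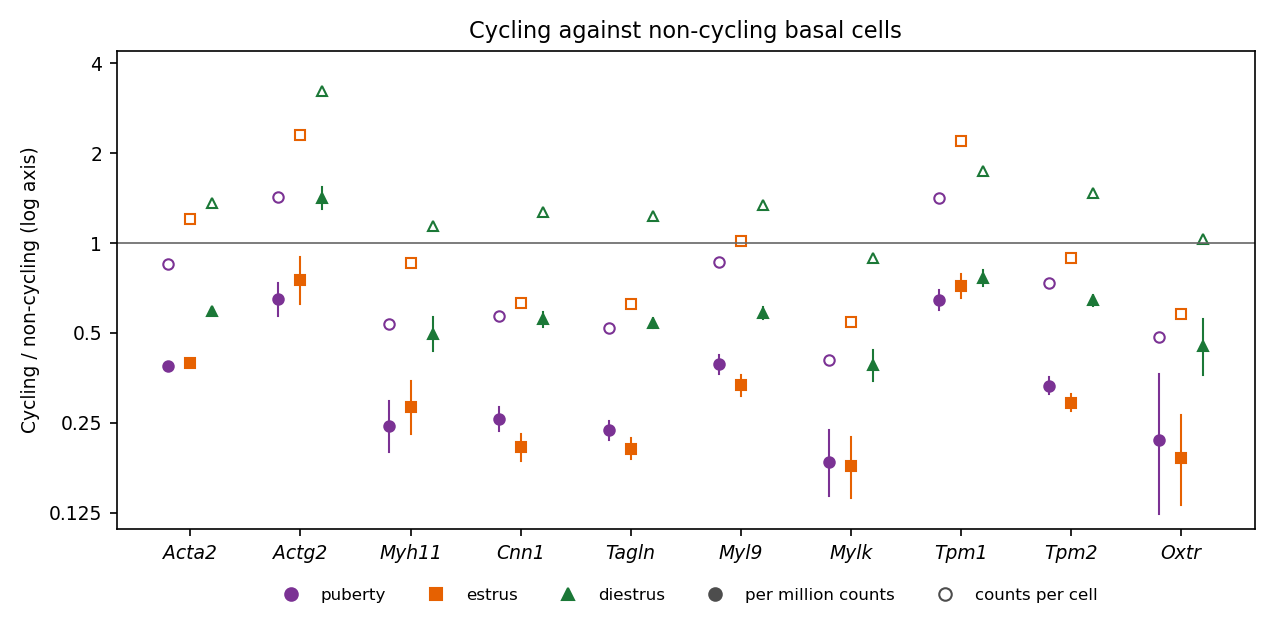
Ratio of cycling to non-cycling basal cells for each gene and library on a log axis, with filled symbols for the level in CPM (vertical lines are exact 95% counting intervals) and open symbols for the mean count per cell. Filled symbols lie below 1 for all genes and libraries except Actg2 in diestrus, whereas open symbols lie on both sides of 1.

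The gap between cycling and non-cycling cells differed in size between the libraries. The ratio of CPM for Acta2 was 0.386 at puberty (interval 0.375 to 0.398) and 0.396 in estrus (0.383 to 0.409). The diestrus value was 0.593 (0.581 to 0.605). For Cnn1 it was 0.259, 0.207 and 0.555, and for Tagln 0.236, 0.205 and 0.539. With 1 library per stage this difference has no replicate. The basal markers were lower in cycling cells too, at 4796 against 15346 CPM at puberty, 6903 against 22523 in estrus and 9380 against 13923 in diestrus. The 8 ML markers were higher in cycling cells, at 1741, 1446 and 838 CPM against 1047, 743 and 729 CPM, and the 8 LP markers were lower. Luminal keratins were lower in cycling cells at puberty (602 against 1089 CPM) and estrus (534 against 1422 CPM). In diestrus they stood at 801 against 762 CPM. Using only basal cells with more basal than luminal keratin left 81, 54 and 191 cycling cells at puberty, estrus and diestrus. Among those basal cells 9 genes were again called, and the ratio of Acta2 was 0.421, 0.430 and 0.604.

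Other structural genes were lower in cycling basal cells as well, with 14 of 16 tested passing and none higher. Lmod1 fell by 2.31 on the log2 scale, Pdlim3 by 1.95 and Csrp1, a smooth muscle LIM protein, by 1.70. None of 11 paralogs tested passed in either direction, with log2 differences between -0.28 and 0.27. Of the regulators 3 of 8 were lower, namely Smad3, Mef2c and Mef2a, and of the signalling genes 3 of 15, namely Plcb1, Prkg1 and Camk2d, against 11.6% of all genes lower and 23.5% called in either direction.

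Single basal cells varied widely in their contractile counts. After each cell was thinned to 1500 counts, the summed count of the 10 genes had a median of 37 at puberty, with 9 at the 10th and 74 at the 90th percentile, over 1093 cells. In estrus the median was 52, with 21 and 87, over 1232 cells, and in diestrus 36, with 14 and 68, over 1027 cells. Thinning left out 33, 62 and 20 shallower basal cells. In LP and ML cells of each library the median was 0. Non-cycling cells had medians of 40, 53 and 40, and cycling cells 11, 14 and 23.

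**Figure D4:**
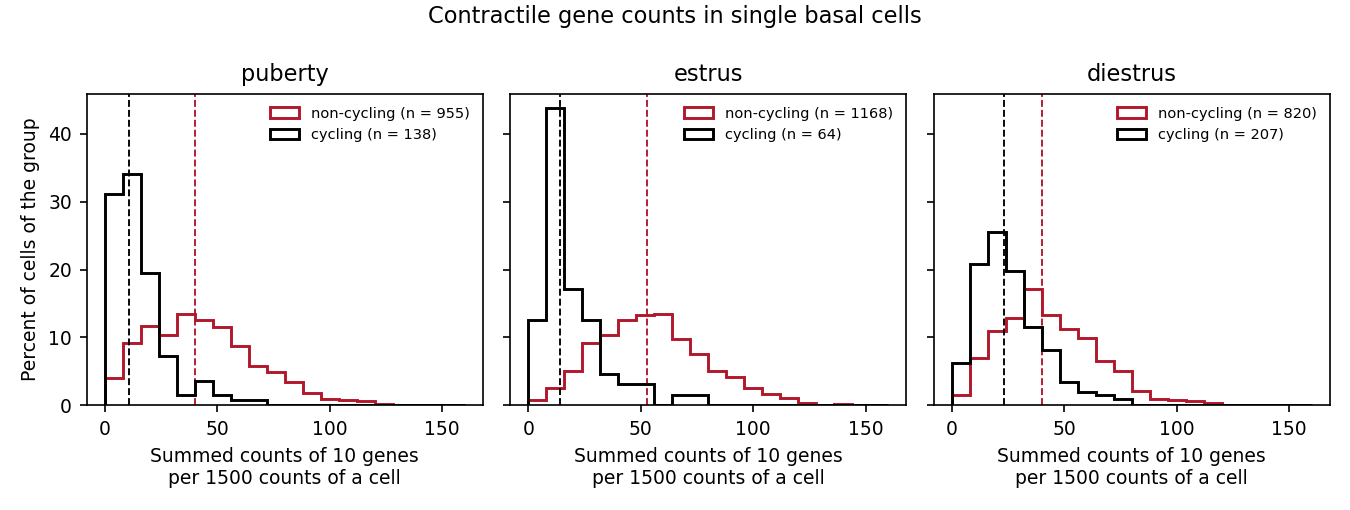
Distribution of the summed count of the 10 genes per basal cell after thinning to 1500 counts, as percent of the non-cycling (red) and cycling (black) cells of each library; dashed lines are medians. Cycling cells peak at the low end, with medians of 11, 14 and 23, and non-cycling cells form a broad peak around medians of 40, 53 and 40.

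Basal cells with more luminal than basal keratin had fewer contractile counts. At puberty these were 16.6% of basal cells, with a median sum of 13 against 41 in cells with more basal keratin, and 18 against 44 when cycling cells were left out. In estrus they were 4.55% of basal cells (median 26.5 against 52) and in diestrus 5.65% (27.5 against 37). In cells with more basal keratin alone the 10th percentile of the sum was 14 at puberty, 23.5 in estrus and 15 in diestrus. The part of the luminal keratin cells in the lower 10th percentile at puberty was not tested.

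The share of cells with a count differed widely between the genes. A count of Acta2 was found in 99.3%, 99.6% and 99.4% of thinned basal cells at puberty, estrus and diestrus, and of Tpm2 in 88.3%, 96.3% and 93.0%. Mylk was found in 33.6%, 57.6% and 41.0%, and Actg2 in 34.3%, 25.1% and 32.8%. Oxtr was found in 9.15% of pubertal basal cells (interval 7.51 to 11.0). In estrus the share was 33.8% (31.2 to 36.6), and in diestrus it was 18.1% (15.8 to 20.6). In ML cells, which carried Oxtr at 0.046%, 0.130% and 0.299%, the median depth was 4706 (4705.5), 4193 and 4405 counts, and in basal cells 2969, 2613 and 3434. Without thinning Oxtr was found in 14.9%, 50.4% and 36.0% of basal cells.

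The spread of single genes was read as the variance to mean ratio, which is 1 for pure counting noise. Acta2 had 8.62, 6.70 and 6.62 at puberty, estrus and diestrus, and the 6, 6 and 5 genes with a mean within 2-fold of its own, Acta2 included, had medians of 6.35, 5.34 and 4.57. Tpm2 and Tagln had between 2.74 and 3.77. Actg2 had 2.47, 1.80 and 1.98 although its mean was only 0.736, 0.403 and 0.576 counts per cell. Genes with a mean within 2-fold of that of Actg2 had medians of 1.33, 1.09 and 1.08. Tpm1, with a higher mean of 1.81, 1.64 and 1.502, had ratios of 1.59, 1.28 and 1.27, and the median for its neighbours in mean was 1.42, 1.25 and 1.20. Over all genes ranked the median was 1.25, 1.06 and 1.04.

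The genes rose and fell together from cell to cell to different extents. Pearson correlations were computed over non-cycling basal cells on log2 of the thinned count plus 1, and are a description of cells that share a library. Acta2 and Tagln correlated at 0.62 at puberty, 0.57 in estrus and 0.58 in diestrus. The 10 pairs among Acta2, Tagln, Tpm2, Cnn1 and Myl9, a group picked after its values were seen, lay between 0.38 and 0.62 in all 3 libraries. The 9 pairs with Oxtr lay between 0.00 and 0.19, and those with Actg2 between 0.02 and 0.29. The 5 genes are also those with the highest mean counts, and a low count weakens a correlation, so levels and correlations were not separated.

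**Figure D5:**
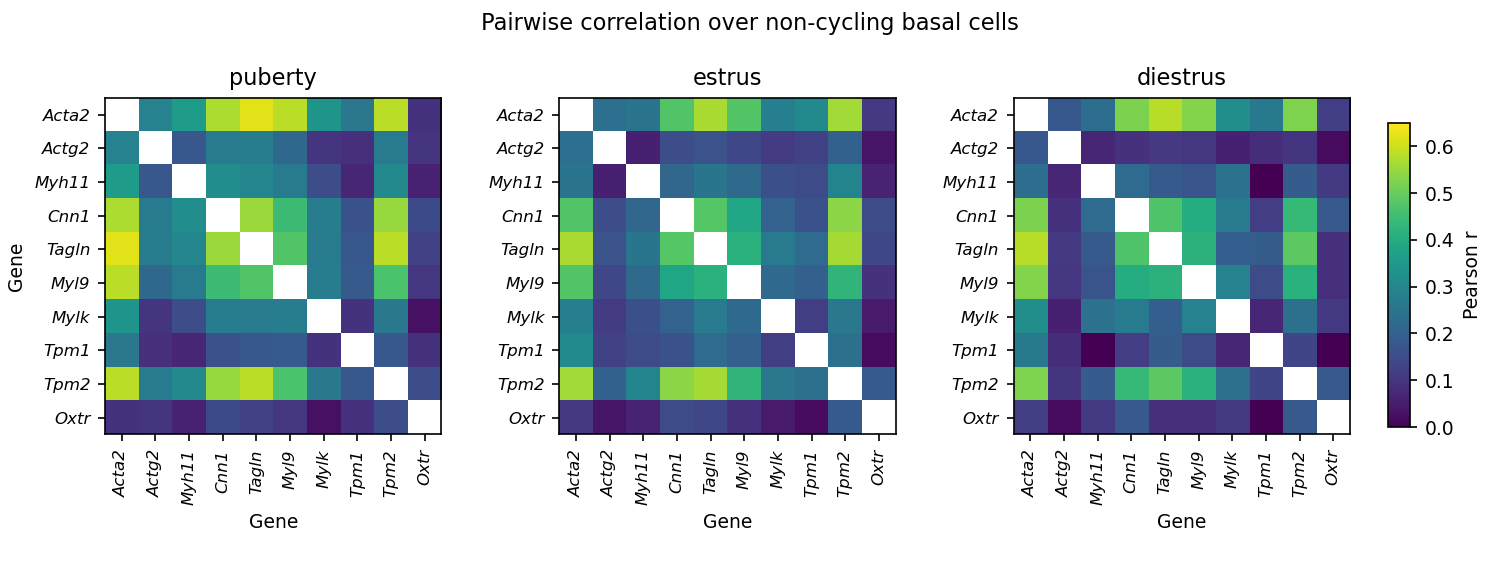
Pearson correlation between pairs of the 10 genes over the non-cycling basal cells of each library (955, 1168 and 820 cells), from dark (0, also used for the lowest value of -0.01) to bright (0.65). Acta2, Cnn1, Tagln, Myl9 and Tpm2 form the bright pairs in each library, and the row of Oxtr is dark, with medians of 0.10, 0.09 and 0.11. Pairs with Actg2 had medians of 0.22, 0.14 and 0.09 at puberty, estrus and diestrus. The 35 pairs outside the bright group had 0.18, 0.17 and 0.14. Pairs with Tpm1 at puberty lay between 0.07 and 0.26.

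Tpm1 was linked more weakly than Myl9 and Acta2, whose mean counts were higher, and levels and correlations were not separated here either. Against the summed count of the other 9 genes over all basal cells it had r of 0.29, 0.31 and 0.26 at puberty, estrus and diestrus, compared with 0.57 to 0.64 for Myl9 and 0.75 to 0.79 for Acta2. Of 1542 other genes found in at least 10% of basal cells of each library, those closest to the summed count were Myl6, the essential light chain of myosin (0.55, 0.53 and 0.53), Csrp1 (0.54, 0.55 and 0.50), Dstn, the actin-severing protein destrin (0.44, 0.34 and 0.38), Krt14 (0.59, 0.43 and 0.33) and Ifitm3 (0.48, 0.32 and 0.33). The median over the 1542 genes was -0.02 in each library. Their 95th percentile was 0.19, 0.11 and 0.14, and Tpm1 lay above it in each library. At the other end were H2afz (-0.32, -0.31 and -0.36), Fabp5, Ran, Hmgb2 and Stmn1, of which H2afz and Hmgb2 encode chromatin proteins. In non-cycling cells alone H2afz had -0.15, -0.17 and -0.23 and Myl6 kept 0.50, 0.46 and 0.53.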

How the data were processed

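Single-cell 3′ libraries (10x Chromium) were sequenced by the authors on a NextSeq 500 and processed with Cell Ranger 2.0 on mm10. The deposited values are counts of molecules per gene and cell barcode, without normalization, and the deposited barcodes were used as given. The 10 genes, the gene lists and the comparisons were chosen with earlier results of these data known.

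Lineages were called per library from signatures of up to 100 genes grown from 8 markers each, with the contractile genes, the listed pathway genes, cell cycle, mitochondrial and ribosomal genes barred. Cells between the lineages (mixed and intermediate luminal), 1 unclassed cell and 14, 24 and 11 cells with genes of other cell types were left out of the comparisons. No doublet caller was run. Counts were summed per class and library. Lineages, and cycling against non-cycling basal cells, were tested with edgeR 4.0.16 in R 4.3.3 (TMM, filterByExpr, quasi-likelihood F test, library as a block, Benjamini-Hochberg adjustment over all genes tested, threshold 0.05). The classes of one library share animals and preparation, which the block takes up. Errors of log2 differences are SEs from the fit. A test on simulated counts with known fold changes preceded the fits. With 3 libraries that differ in stage, p-values measure the spread between these libraries.

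Stages were compared as ratios of TMM-scaled CPM, on the log2 scale with a pseudocount of 1 CPM, among genes with at least 50 CPM in either library. Intervals are exact (Poisson, binomial or conditional binomial), at 95%, and cover counting error only. Basal libraries held 4069321, 4360586 and 4719900 counts at puberty, estrus and diestrus. The text names all 10 genes, up to 3 genes per list and direction, a fixed set of paralogs, and the 5 genes at each end of the correlation with the summed count. Shares, variance to mean ratios and correlations used cells thinned to 1500 counts (seed 20171120), with variance to mean ratios ranked among genes with a mean of at least 0.02. Alternatives covered size factors, DESeq2 1.42.0, filters, the block, each library left out, the second puberty table, stricter cells, keratin classes, and thinning depths.

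Gene positions are from GENCODE M21 (GRCm38). None of the 451 words of 50 bases in the last 500 bases of each gene's longest coding transcript was found in another gene's transcripts. Tagln overlaps Pcsk7 and Mylk overlaps 1700119H24Rik, both on the opposite strand, and the use of strand in counting is not given in the sources used here.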

Additional observations from a re-analysis of the deposited data

Results flagged for a closer look

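For 6 pairings of stages and genes, the basal level and a luminal level moved in opposite directions with counting intervals that both left out 1. The difference between the lineages was not tested. From estrus to puberty Tagln had a ratio of 0.667 in basal cells, 1.75 in LP cells and 1.58 in ML cells, and Tpm2 had 0.648 in the basal, 1.64 in the LP and 1.55 in the ML lineage. For the same stages Cnn1 had 0.699 in basal and 3.71 in LP cells, and Myl9 0.798 in basal and 4.28 in LP cells. In pubertal LP cells 1 cell held 31 of 66 Cnn1, 80 of 122 Myl9, 24 of 111 Tpm2 and 18 of 162 Tagln counts. In pubertal ML cells 1 cell held 27 of 123 Tagln counts. The intervals began at 1.06 for Tagln in ML cells and at 1.003 for Tpm2 in LP cells. The ratios were not retaken without these cells, so the opposite directions can rest on single cells. Acta2 had a diestrus to estrus ratio of 0.788 in basal and 1.37 in ML cells, and a puberty to diestrus ratio of 1.03 in basal and 0.680 in ML cells. The basal direction of the latter turned under the alternatives, with log2 ratios from -0.11 to 0.25. The luminal levels behind these ratios were at most 0.865% of the basal level, for Tpm2 in pubertal ML cells.

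Cells set aside for genes of other cell types also carried contractile counts. The 10 genes took 0.0319% of the counts of the 14 such cells at puberty, 0.613% of the 24 in estrus and 0.570% of the 11 in diestrus. Of these cells 0, 2 and 3 carried pericyte genes. The second puberty table, which was not part of the comparisons, gave 2.19% of counts in basal cells.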

How the results depend on the processing

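All 10 genes stayed higher in basal than in luminal cells under 11 alternatives. The count of genes lower in cycling basal cells lay between 7 and 10 over 12 alternatives, with 7 without the library block in place of 9, and between 8 and 10 when each library was left out in turn. In the fits 314 of 330 values for single genes kept their direction and side of the threshold. The log2 ratios between stages were less stable, and 117 of 230 values for single genes were counted as the same under the alternatives. Between LP and ML cells 6 genes passed without a filter on low counts, and between 2 and 4 passed when a library was left out. With each library left out in turn the LP to ML difference ranged from -0.17 to 1.97 for Actg2, from -0.25 to 0.88 for Cnn1, from -0.44 to 1.36 for Myl9 and from -0.87 to 0.39 for Mylk, with the lowest value of each without the puberty library. That of Mylk was -0.10 in DESeq2. The cycling difference of Actg2 ranged from -0.67 without diestrus to 0.0052 without puberty. The cause was not tested. The classes of each library shared the block, and no other call than those of Actg2 between LP and ML cells and of Tpm1 and Oxtr in cycling cells was lost without the replicate block.

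At a fold of 1.5, 6 genes passed from diestrus to estrus, 4 from puberty to estrus and 1 from puberty to diestrus. Actg2 was higher than in estrus among the 6 and among the 4, and the others were lower. The share of all genes past 1.5-fold is not given here, so these counts have no background beside them. At a fold of 2 with the mean over cells, 0 passed from diestrus to estrus and 1, Oxtr, from puberty to diestrus. From puberty to estrus 2 passed without the TMM factor, with stricter cells or with the second puberty table, the added gene being Mylk. Oxtr had log2 ratios to estrus from -1.36 to -0.95 in diestrus and from -2.31 to -1.75 at puberty. The percent of counts in basal cells at puberty was 2.57 with keratin classes, 2.19 in the second table and 1.97 with stricter cells; in estrus it was 3.39 and 3.33 with keratin classes and stricter cells, and in diestrus 2.25 with stricter cells. The median share of basal cells with a count, at 74.8%, 83.0% and 75.8% for puberty, estrus and diestrus, was 65.7%, 73.7% and 64.9% at 1000 counts, 79.96%, 92.5% and 88.4% at 2500, and 87.6%, 92.1% and 91.2% without thinning. The median variance to mean ratio, at 2.36, 1.98 and 2.01, was 1.95, 1.65 and 1.67 at 1000 counts and 3.37, 2.57 and 2.70 at 2500. Depth limits the luminal values, since 9 of the 10 genes had at most 65 counts in LP cells of the estrus library. Alternatives that leave out cells with Schwann cell genes, or basal cells rich in luminal keratin, were added after the data were seen.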

Other observations

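Cells that carried both basal and luminal signatures were in no comparison. In the 95, 42 and 39 such cells of puberty, estrus and diestrus the 10 genes took 0.932%, 1.58% and 0.815% of counts, between the basal and the luminal values, and Acta2 made up 41.1% to 46.8% of them. Their median depths of 6670, 5306 (5305.5) and 5358 counts were above those of basal cells, and doublets were not called. In the 226, 113 and 92 cells between the LP and ML signatures the share was 0.0288%, 0.0272% and 0.0389%.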
